A study of Mus musculus with 12 samples.

Results

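The expression of 37 genes of the lysosome was examined in BMDCs: 10 cathepsins and other lysosomal proteases (Ctsb, Ctsc, Ctsd, Ctsh, Ctsk, Ctsl, Ctss, Ctsz, Lgmn and Tpp1), the cathepsin inhibitor Cst3, the membrane glycoproteins Lamp1 and Lamp2, 10 enzymes that cut sugar chains (Hexa, Gaa, Gla, Glb1, Gusb, Neu1, Sgsh, Manba, Man2b1 and Fuca1), 8 genes of lipid breakdown and cholesterol export (Galc, Asah1, Psap, Grn, Lipa, Ppt1, Npc1 and Npc2), the channel and transporters Mcoln1, Ctns and Slc36a1, and the MiT transcription factors Tfeb, Tfe3 and Mitf. They were chosen by symbol for the function of their products. All 37 were found among the 55335 genes of the deposited tables, each under 1 identifier, and all 37 were among the 14008 genes that passed the filter on low counts.

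Lysosomes are acidic organelles in which hydrolases break down proteins, sugar chains and lipids delivered by endocytosis, phagocytosis and autophagy. In dendritic cells their proteases also cut antigen and the invariant chain on the way to presentation by MHC class II. Many lysosomal genes carry near their start a short E-box motif that is bound by TFEB, TFE3 and MITF, factors whose entry into the nucleus is held back by mTORC1 signalling at the lysosomal surface.

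BMDCs were grown from bone marrow of C57BL/6 mice with GM-CSF for 6 days, in 4 groups of 3 libraries each. WT cells came from CreER mice and KO cells from CreER;CTCF fl/fl mice, both 8 to 12 weeks old and of both sexes. WTL and KOL cells were the same cells stimulated for 3 h with 100 ng/ml of LPS, the bacterial cell wall component sensed by TLR4. CreER is expressed from the Rosa26 locus in all cells of the marrow, so Ctcf was deleted from the progenitors on, by 4-OHT on day 1 of culture. The study describes 4-OHT as given to remove the floxed alleles in KO and not in WT cells, a wording that leaves unclear whether WT cultures received the drug. If they did not, what the drug itself does and what the genotype does cannot be told apart. Floating cells were selected on CD11c, and RNA was measured in bulk over the selected cells, in which fewer cells of a type and less RNA per cell cannot be told apart. The study's methods describe 3 biological replicates per condition, and p-values measure the spread between these libraries.

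Each library held between 12769773 and 16586334 expected counts. Ctcf had 1051, 987 and 975 normalized counts in WT, 886, 817 and 745 in WTL, 570, 562 and 516 in KO, and 563, 530 and 526 in KOL. It was thus lower in every KO or KOL library than in every WT or WTL library, by 1.83-fold in KO against WT (adjusted p = 3.9e-07, quasi-likelihood test of edgeR, Benjamini-Hochberg adjustment over all genes). Replicates of WTL differed most from each other, and ribosomal RNA genes took 5.218% of WTL replicate 2 against at most 1.262% of any other library. Between replicates, chi-square per degree of freedom over genes was 1.657 to 1.859 in KO and 3.139 to 4.447 in WT. It was 8.07 to 28.514 in KOL and 28.31 to 77.74 in WTL, so KO replicates were most alike. The fit takes a single spread per gene from all 4 groups, so p-values of KO against WT do not rest on those libraries alone. The dendritic cell genes Itgax, Cd74 and H2-Aa were high in all libraries, with at least 205.8, 4130 and 1447 TPM, whereas Flt3 reached at most 4.1 TPM. The 10 dendritic cell markers summed to 14290 to 15110 TPM in WT, 12990 to 17280 in WTL, 9830 to 10170 in KO and 12700 to 17550 in KOL. This list was split too, with 1 risen and 4 fallen in KO against WT (22.2% and 22.4% of all genes). In KOL against WTL, 1 rose and 7 fell (21.4% and 23.3%). Itgax had 356.0 to 374.2 TPM in WT and 598.4 to 612.4 in KO, whereas H2-Aa had 3464 to 3579 in WT and 1447 to 1518 in KO. Of 10 neutrophil markers 8 could be tested and 7 fell in KO against WT (22.4% of all genes fell), their sum being 451.9 to 481.8 TPM in WT, 398.0 to 508.0 in WTL, 241.5 to 273.3 in KO and 334.1 to 390.1 in KOL, with Elane at most 0.99 and Ly6g at most 1.81 TPM in any library. The 8 macrophage markers summed to 524.1 to 574.5 TPM in WT, 224.4 to 291.7 in WTL, 653.5 to 681.8 in KO and 248.9 to 293.1 in KOL. Most of that sum in WT and KO was Csf1r, and the list was split in KO against WT, with Csf1r, C1qa and C1qc among those that rose and Adgre1, Mertk and Fcgr1 among those that fell, where 22.2% of all genes rose and 22.4% fell. The part of these cells in the results below was not tested. On TPM without further scaling, log2 fold changes moved from those on counts by a median of -0.49 over genes in WTL against WT. In KOL against KO they moved by a median of -0.427. Marker sums with and without LPS are therefore not compared. Markers of mast cells and basophils, of B and T cells and of erythroid cells summed to at most 8.62, 1.8 and 4.03 TPM in any library.

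The letters of the E-box are shown first for 6 of the genes whose values follow, because these are the motif through which MiT factors are known to act. RefSeq promoters of GRCm38.p6, from 250 bases before to 50 bases after the start, were matched for 33 of the 37 genes, and not for Ctsb, Ctsh, Asah1 and Npc1. The E-box CACGTG was searched on both strands, together with TCACGTG, which contains it, and TCATGTG, which does not. CACGTG was present in 10 of the 33 genes: Ctsd, Ctsl, Gaa, Gla, Glb1, Lamp1, Lgmn, Mcoln1, Sgsh and Slc36a1. It lay in 24.4% of their 41 promoters and in 7.15% of all 32851 promoters. In Lgmn only the promoter at chr12:102439043-102439342 held CACGTG, and that at chr12:102439679-102439978 did not. The last 30 bases of the former were not found in transcripts of the gene, and those of the latter were. TCACGTG was found in 9 of these 10 genes, all but Ctsl, in 22.0% of the members' promoters and 3.77% of all. TCATGTG was found in Ctss, Gla, Grn, Ppt1 and Tpp1, in 12.2% of the members' promoters and 3.77% of all. Capitals mark TCACGTG on either strand, read as TCACGTG or CACGTGA, and positions are of the first base of CACGTG from the start.
Lamp1 (chr8:13158911-13159210, plus strand): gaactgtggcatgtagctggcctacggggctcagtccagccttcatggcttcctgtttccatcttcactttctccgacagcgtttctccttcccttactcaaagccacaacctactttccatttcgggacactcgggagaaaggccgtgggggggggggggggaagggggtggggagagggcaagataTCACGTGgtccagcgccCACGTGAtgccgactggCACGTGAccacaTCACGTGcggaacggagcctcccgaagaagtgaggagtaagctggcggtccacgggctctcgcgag
Slc36a1 (chr11:55204090-55204389, plus strand): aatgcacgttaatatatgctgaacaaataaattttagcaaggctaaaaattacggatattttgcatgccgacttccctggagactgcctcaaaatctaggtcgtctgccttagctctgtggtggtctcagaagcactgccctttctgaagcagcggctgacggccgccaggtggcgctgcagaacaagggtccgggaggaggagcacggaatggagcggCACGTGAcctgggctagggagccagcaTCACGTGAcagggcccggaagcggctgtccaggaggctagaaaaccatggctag
Mcoln1 (chr8:3500269-3500568, plus strand): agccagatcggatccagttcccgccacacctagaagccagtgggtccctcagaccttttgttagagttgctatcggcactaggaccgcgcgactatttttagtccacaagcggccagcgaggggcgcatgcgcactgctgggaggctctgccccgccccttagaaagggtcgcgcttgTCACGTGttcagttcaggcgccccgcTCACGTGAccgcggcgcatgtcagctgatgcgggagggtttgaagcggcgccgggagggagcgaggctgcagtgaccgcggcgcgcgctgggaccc
Glb1 (chr9:114400828-114401127, plus strand): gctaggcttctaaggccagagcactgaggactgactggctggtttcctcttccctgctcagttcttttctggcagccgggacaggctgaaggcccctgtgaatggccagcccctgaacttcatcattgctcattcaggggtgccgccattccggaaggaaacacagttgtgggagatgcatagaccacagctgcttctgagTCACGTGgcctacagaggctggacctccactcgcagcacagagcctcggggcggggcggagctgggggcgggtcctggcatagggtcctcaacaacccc
Gaa (chr11:119267713-119268012, plus strand): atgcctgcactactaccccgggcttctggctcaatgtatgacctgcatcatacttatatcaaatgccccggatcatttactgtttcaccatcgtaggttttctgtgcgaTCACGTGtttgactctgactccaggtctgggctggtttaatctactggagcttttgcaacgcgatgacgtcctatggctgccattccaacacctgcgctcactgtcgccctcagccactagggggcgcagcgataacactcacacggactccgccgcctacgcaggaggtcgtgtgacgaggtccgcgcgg
Sgsh (chr11:119355461-119355760, minus strand): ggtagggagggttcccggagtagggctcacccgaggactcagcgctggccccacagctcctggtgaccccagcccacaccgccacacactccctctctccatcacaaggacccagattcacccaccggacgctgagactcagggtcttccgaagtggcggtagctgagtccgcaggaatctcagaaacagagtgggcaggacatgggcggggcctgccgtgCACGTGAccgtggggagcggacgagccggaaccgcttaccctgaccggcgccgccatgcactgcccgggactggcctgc
Lamp1 held 4 E-boxes, at -61, -45, -28 and -15, which was more than in any other of the 33 genes. Slc36a1 held E-boxes at -31 and -3, and Mcoln1 at -71 and -45. Glb1 held 1 at -48, Gaa 1 at -140 and Sgsh 1 at -29. None of the matched promoters of Tfeb, Tfe3 and Mitf held any of these 3 sequences. Of the 10 genes with CACGTG, Slc36a1, Lamp1, Glb1, Sgsh, Ctsd, Ctsl and Lgmn rose in KO against WT, Gaa and Mcoln1 fell and Gla was not called. Over all genes, 22.2% rose and 22.4% fell. Among the matched genes without CACGTG, Ctsc, Ctss, Ctsz, Hexa, Gusb, Manba, Man2b1, Fuca1, Galc, Psap, Grn, Npc2 and Tfeb also rose. Cst3 and Ctsk fell there, and the others were not called. The calls of Sgsh, Mcoln1 and Hexa were lost without some 1 library. A link between the motif and the rise was not tested. A match describes the letters and does not show that a factor was bound.

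The 37 genes summed to 19050 to 20280 TPM in WT, 15090 to 17100 in WTL, 22970 to 23330 in KO and 17300 to 19550 in KOL. The KO libraries thus lay above the WT libraries, and the KOL libraries above the WTL libraries. As for the markers, sums with and without LPS are not compared, because fold changes with LPS moved on this scale. TPM are counts per transcript length, scaled to the same total in every library, and levels are compared between genes on this scale only. With the same limit, the share of the 37 genes in all TPM was 1.96% in WT, 1.6% in WTL, 2.32% in KO and 1.84% in KOL. Cst3, whose product cystatin C inhibits cysteine cathepsins, stood at the top in WT with 4635 ± 357 TPM (SD, n = 3). Psap, which encodes the precursor of the saposins that help enzymes reach sphingolipids, followed with 4171 ± 120 TPM, and the 3 WT libraries of both overlapped. Ctss, the cathepsin that cleaves the invariant chain in antigen-presenting cells, had 2743 ± 78.0 TPM and the aspartic protease gene Ctsd 2035 ± 88.9 TPM. In KO the order at the top was Psap (6247 ± 128 TPM), Ctss (3566 ± 32.2) and Cst3 (3082 ± 94.1). Sgsh, which encodes a sulfatase of heparan sulfate breakdown, was lowest in every group, with 1.67 ± 0.548 TPM in WT and 0.323 ± 0.131 in WTL.

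**Figure D1:**
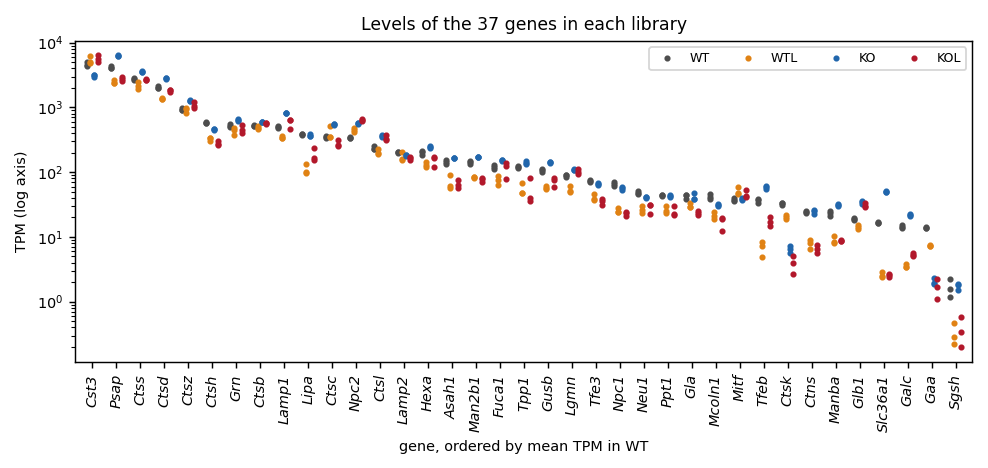
Level of each of the 37 genes in TPM, on a log axis, ordered by the mean of the 3 WT libraries, with 1 point per library and 1 colour per group. Levels ranged from 4635 TPM for Cst3 to 1.67 TPM for Sgsh in WT, and Slc36a1 went from a mean of 2.53 TPM in KOL to 50.2 TPM in KO.

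To see which lysosomal genes differed between KO and WT cells before stimulation, KO was compared with WT. Of the 37 genes, 21 rose, 4 fell and 12 were not called at an adjusted p under 0.05. Over all genes tested, 22.2% rose and 22.4% fell, so that 25 of the 37 and 44.6% of all genes were called. The median log2 fold change was 0.402 over the 37 genes and -0.014 over all genes. The study's fold cutoff of 1.3 left 20 that rose and 3 that fell, against 17.3% and 17.2% of all genes. In 25 of the genes every KO library was above every WT library (31.9% of all genes), and in 4 every KO library was below (32.3%). The counts by role were 7 risen and 1 fallen of 10 proteases, 7 and 1 of 10 enzymes of sugar chains, and 4 and 0 of 8 genes of lipid handling.

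After LPS, KOL was compared with WTL to see which differences were present in stimulated cells. Here 14 of the genes rose and 4 fell, against 21.4% and 23.3% of all genes, and 19 were not called. The 18 called stand beside 44.7% of all genes. The median was 0.125 over the 37 genes and -0.035 over all genes. The study's fold cutoff of 1.5 left 8 and 2, against 12.5% of all genes in either direction. In 13 genes every KOL library lay above every WTL library (21.9% of all genes) and in 5 every one lay below (24.4%). The comparisons KO against WT and KOL against WTL share no libraries but come from the same fit. In both, 13 genes rose (Ctsb, Ctsd, Ctsl, Ctss, Ctsz, Fuca1, Galc, Glb1, Gusb, Lamp1, Lgmn, Npc2 and Tfeb) and 3 fell (Ctsk, Gaa and Mcoln1). Ctsc alone was called in opposite directions, and 11 genes were called in neither. The share of all genes called alike in both comparisons was not counted.

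The LPS response was measured by comparing WTL with WT and KOL with KO. In WT cells 10 of the genes rose, 19 fell and 8 were not called, where 30.0% of all genes rose and 30.2% fell, so that 29 of the 37 and 60.2% of all genes were called. The median was -0.188 over the 37 genes and -0.018 over all genes. The study's fold cutoff of 2 left 0 risen and 6 fallen, against 12.6% and 9.99% of all genes. Every WTL library was above every WT library in 10 genes (31.8% of all genes) and below in 20 (33.3%). In KO cells 9 rose, 19 fell and 9 were not called, where 33.6% of all genes rose and 33.9% fell (28 of 37 called, against 67.5%), with medians of -0.253 over the 37 genes and -0.024 over all. The same fold cutoff, which the study does not state for this comparison, left 1 and 7, against 15.1% and 13.0% of all genes. The groups did not overlap in 9 genes that were higher in KOL (34.9% of all genes) and 23 that were lower (36.3%). On counts, 15 genes fell and 7 rose in both genotypes, and the share of all genes that did so was not counted.

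How many genes rose with LPS depended on the scale. TPM without further scaling moved log2 fold changes from those on counts, by a median of -0.49 over genes in WTL against WT and -0.427 in KOL against KO. On that scale 2 of the 37 genes rose and 30 fell in WT cells, and 2 rose and 27 fell in KO cells. When TPM were divided by size factors, an alternative added after the data had been seen, the counts were 8 risen and 19 fallen in WT cells and 8 and 20 in KO cells. Values below are from normalized counts unless TPM is named.

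**Figure D2:**
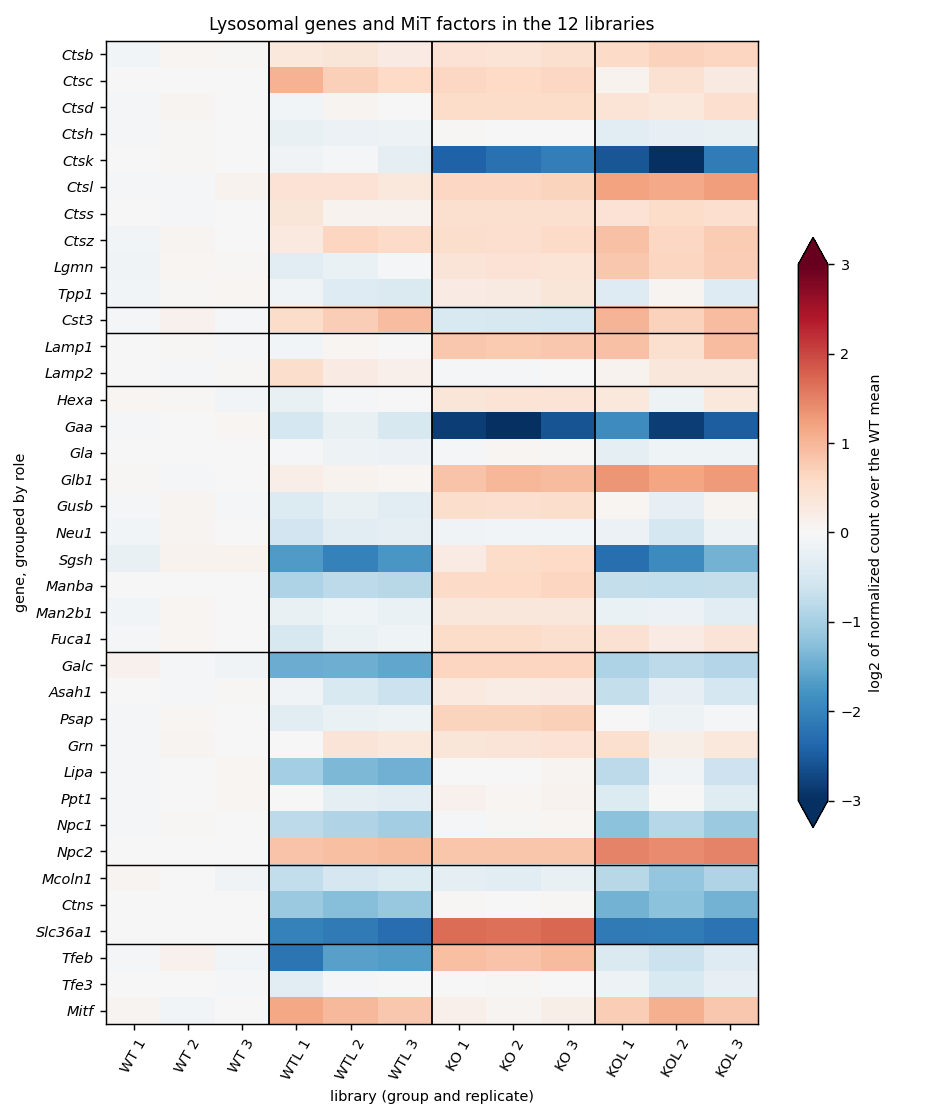
Heat map of the 37 genes (rows, grouped by role) in the 12 libraries (columns), coloured by the log2 ratio of the normalized count to the mean of the 3 WT libraries. Gaa and Ctsk are blue in all KO and KOL libraries, and Slc36a1 is red in KO and blue in WTL and KOL.

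The MiT factors did not move together. Tfeb (chr17:47737030-47792419, plus strand) had 547, 613 and 530 normalized counts in WT, 124, 183 and 178 in WTL, 1058, 1024 and 1089 in KO, and 414, 359 and 428 in KOL. The 4 groups did not overlap, with KO highest, then WT, KOL and WTL. Tfeb rose 1.88-fold in KO against WT (log2 fold change 0.91 ± 0.10 SE, adjusted p = 5.9e-06, edgeR with Benjamini-Hochberg adjustment) and 2.46-fold in KOL against WTL (adjusted p = 9.9e-07). It fell 3.46-fold with LPS in WT cells (adjusted p = 9.9e-09, edgeR) and 2.64-fold in KO cells (adjusted p = 3.8e-08), and the difference between these responses was not called (0.39 ± 0.16, adjusted p = 0.12).

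Mitf (chr6:97807052-98021349, plus strand) had 1787, 1607 and 1704 normalized counts in WT, 3819, 3333 and 2972 in WTL, 1889, 1812 and 1931 in KO, and 2844, 3539 and 2963 in KOL. The stimulated libraries were all above the unstimulated ones, while WTL and KOL overlapped. It rose 1.99-fold with LPS in WT cells (adjusted p = 8.5e-07, edgeR) and 1.66-fold in KO cells (adjusted p = 1.5e-05). On unscaled TPM the rise in KO cells did not pass (0.23, adjusted p = 0.088, limma). Tfe3 (chrX:7762560-7775202, plus strand) had 1456, 1450 and 1417 normalized counts in WT, 1164, 1396 and 1433 in WTL, 1419, 1470 and 1428 in KO, and 1307, 1047 and 1207 in KOL. WT and KO overlapped, and the log2 fold change of KO against WT was -0.0022 ± 0.0902 SE. Tfe3 fell 1.21-fold with LPS in KO cells (adjusted p = 0.015, edgeR), a call lost without KOL replicate 2 (-0.20, adjusted p = 0.054). In WT cells it was not called on counts (-0.11, adjusted p = 0.3) and fell on rescaled TPM (-0.33, adjusted p = 0.0022, limma). RSEM's effective length of Tfe3, which weights isoforms, was 1896 ± 26.9 bases in WT and 2169 ± 155 in WTL (SD, n = 3). Neither Mitf (0.14, adjusted p = 0.26) nor Tfe3 was called in KO against WT.

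**Figure D3:**
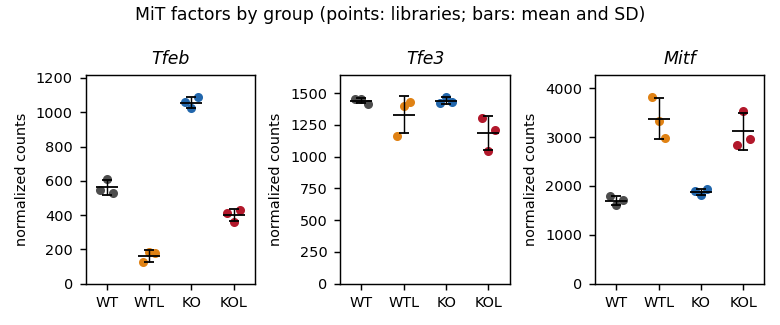
Normalized counts (y axis, from 0) of Tfeb, Tfe3 and Mitf in the 4 groups, with 1 point per library and the mean and SD of 3 libraries in black. Tfeb separates all 4 groups, Mitf separates stimulated from unstimulated libraries, and the WT and KO libraries of Tfe3 overlap between 1417 and 1470.

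Among the proteases the largest fall in CTCF-deficient cells was that of Ctsk (chr3:95499256-95509362, plus strand), which encodes a collagen-degrading cathepsin best known from osteoclasts. Its normalized counts were 434, 444 and 431 in WT, 409, 419 and 360 in WTL, 80.7, 93.1 and 103 in KO, and 74.2, 53.8 and 103 in KOL. All KO and KOL libraries lay below all WT and WTL libraries. Ctsk fell 4.73-fold in KO against WT (adjusted p = 1.9e-08, edgeR) and 5.11-fold in KOL against WTL (adjusted p = 2.7e-08), and it was not called with LPS in either genotype. Of 6 osteoclast markers 4 could be tested, of which 3 fell and 1, Acp5, rose in KO against WT (22.4% and 22.2% of all genes). They summed to 376.0 to 421.3 TPM in WT and 339.6 to 350.5 in KO, with Calcr at most 0.65 and Oscar at most 0.61 TPM in any library. Their part in the fall of Ctsk was not tested.

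Ctsc (chr7:88278085-88310888, plus strand) encodes dipeptidyl peptidase I, which activates serine proteases of granules. It had 8054, 7889 and 8076 normalized counts in WT, 16389, 13179 and 12095 in WTL, 12286, 12064 and 12385 in KO, and 8683, 10992 and 9727 in KOL. KO and WTL were thus both above WT, and KOL lay between WT and KO. Ctsc rose 1.53-fold in KO against WT (adjusted p = 0.00024, edgeR) and fell 1.42-fold in KOL against WTL (adjusted p = 0.0012). With LPS it rose 1.73-fold in WT cells (adjusted p = 1.3e-05, edgeR), a rise that did not pass on unscaled TPM (0.19, adjusted p = 0.22, limma). In KO cells it fell by 0.32 on the log2 scale (adjusted p = 0.014, edgeR), a call lost without KOL replicate 1 (-0.24, adjusted p = 0.071).

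Lgmn (chr12:102394084-102439813, minus strand) encodes legumain, an asparaginyl endopeptidase that processes cathepsins and antigens. It had 1501, 1674 and 1652 normalized counts in WT, 1264, 1403 and 1536 in WTL, 2090, 2171 and 2127 in KO, and 2835, 2496 and 2676 in KOL. All KO libraries were above all WT libraries and all KOL libraries above all KO libraries, whereas WT and WTL overlapped. Lgmn rose 1.32-fold in KO against WT (adjusted p = 0.00096, edgeR) and 1.90-fold in KOL against WTL (adjusted p = 4.7e-07). Its rise of 0.33 with LPS in KO cells (adjusted p = 0.0025, edgeR) had the opposite sign on unscaled TPM (-0.12, adjusted p = 0.23, limma).

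The cathepsins Ctsb, Ctsd, Ctsl, Ctss and Ctsz rose by 0.44 to 0.63 on the log2 scale in KO against WT, with adjusted p of 0.00026 or less (edgeR). In KOL against WTL they rose by 0.26 to 0.81, of which Ctsz was lost without WTL replicate 1 (0.16, adjusted p = 0.11), KOL replicate 1 (0.19, adjusted p = 0.14) or KOL replicate 3 (0.26, adjusted p = 0.068). Ctsl, an endopeptidase, showed the largest of these differences, with 3117 ± 132 normalized counts in WTL and 5463 ± 240 in KOL (SD, n = 3). Exons of Ctsd overlap those of Gm49369 on the same strand, between which reads can be divided. The sum of both was 38972 ± 2231 in WT and 58946 ± 566 in KO, and 36827 ± 1179 in WTL and 49016 ± 1664 in KOL (SD, n = 3), so KO and KOL were also higher in the sum. Ctsb overlaps Fdft1 on the other strand, and whether the counting used strand was not stated.

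With LPS, Ctsl rose by 0.39 in WT and 0.57 in KO cells, Ctsb by 0.30 and 0.20 and Ctsz by 0.51 and 0.23 (adjusted p from 3.5e-06 to 0.039, edgeR), all of which had the opposite sign on unscaled TPM. Ctsb and Ctsz in KO cells lost their calls without 1 library, Ctsb without KO replicate 2 (0.18, adjusted p = 0.054) and Ctsz without any of KO replicates 1 to 3 or KOL replicates 1 and 3 (0.16 to 0.24, adjusted p = 0.068 to 0.16). Ctsh fell with LPS by 0.19 in WT and 0.28 in KO cells (adjusted p = 0.014 and 0.00091, edgeR). On counts it was not called in KO against WT (0.0042, adjusted p = 0.96), but it fell there on TPM (-0.34, adjusted p = 0.0017, limma) and on rescaled TPM (-0.25, adjusted p = 0.0064). Its effective length was 783 ± 12.9 bases in WT and 930 ± 9.4 in KO. Tpp1, a tripeptidyl peptidase, fell by 0.52 with LPS in KO cells (adjusted p = 0.0018, edgeR).

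The inhibitor Cst3 (chr2:148871722-148875692, minus strand) had 28106, 31837 and 28042 normalized counts in WT, 43276, 49094 and 56035 in WTL, 21291, 20961 and 20208 in KO, and 59357, 47098 and 55744 in KOL. KO was below WT in every library and both stimulated groups were above both unstimulated ones and overlapped each other. Cst3 fell 1.41-fold in KO against WT (adjusted p = 0.0012, edgeR) and was not called in KOL against WTL (0.13 ± 0.10 SE, adjusted p = 0.33). It rose 1.69-fold with LPS in WT cells (adjusted p = 1.8e-05, edgeR), which did not pass on unscaled TPM (0.20, adjusted p = 0.13, limma), and 2.60-fold in KO cells (adjusted p = 3e-08, edgeR).

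The membrane glycoproteins differed from each other. Lamp1, whose promoter with 4 E-boxes is shown above, had 10367, 10453 and 9926 normalized counts in WT, 9648, 10723 and 10311 in WTL, 17912, 17753 and 17866 in KO, and 18720, 14291 and 19622 in KOL. All KO and KOL libraries exceeded all WT and WTL libraries. Lamp1 rose 1.74-fold in KO against WT (adjusted p = 1.1e-05, edgeR) and 1.72-fold in KOL against WTL (adjusted p = 1.5e-05), and was not called with LPS in either genotype. Lamp2 was not called in either comparison of genotypes. Its rises with LPS of 0.32 in WT cells and 0.29 in KO cells (adjusted p = 0.0094 and 0.013, edgeR) had the opposite sign on unscaled TPM, and the first was lost without WT replicate 1, 2 or 3 (0.22 to 0.26, adjusted p = 0.064 to 0.12).

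Gaa (chr11:119267887-119285454, plus strand), the acid alpha-glucosidase that degrades glycogen, showed the largest fall of the 37 genes in KO. Its normalized counts were 390, 410 and 424 in WT, 282, 351 and 291 in WTL, 57.4, 49.0 and 67.6 in KO, and 110, 57.3 and 73.7 in KOL. All KO and KOL libraries were below all WT and WTL libraries. Gaa fell 7.01-fold in KO against WT (log2 fold change -2.81 ± 0.17 SE, adjusted p = 1e-08, edgeR) and 3.82-fold in KOL against WTL (adjusted p = 5.7e-07). Its fall with LPS in WT cells (-0.40, adjusted p = 0.027, edgeR) was lost without WTL replicate 1 (-0.35, adjusted p = 0.064) or WTL replicate 3 (-0.36, adjusted p = 0.078).

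Glb1, the acid beta-galactosidase (chr9:114401076-114474898, plus strand), moved the other way. It had 440, 414 and 435 normalized counts in WT, 491, 464 and 451 in WTL, 783, 853 and 828 in KO, and 1073, 983 and 1035 in KOL. No 2 groups overlapped, with WT lowest and KOL highest. Glb1 rose 1.91-fold in KO against WT (adjusted p = 5.7e-08, edgeR) and 2.20-fold in KOL against WTL (adjusted p = 1e-08), while its rise of 0.33 with LPS in KO cells (adjusted p = 0.00051) had the opposite sign on unscaled TPM. Part of its exons is shared with Tmppe on the same strand, which reached at most 7.47 TPM.

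Sgsh (chr11:119343425-119355536, minus strand) had 48.7, 61.2 and 61.4 normalized counts in WT, 17.5, 14.1 and 17.01 in WTL, 68.2, 83.5 and 87.1 in KO, and 11.8, 15.2 and 21.4 in KOL. The stimulated libraries were all below the unstimulated ones. Sgsh fell 3.52-fold with LPS in WT cells (adjusted p = 1e-05, edgeR) and 4.89-fold in KO cells (adjusted p = 5.2e-07). Its rise of 0.48 in KO against WT (adjusted p = 0.048, edgeR) was lost with DESeq2 (adjusted p = 0.13), on TPM (0.054, adjusted p = 0.83, limma) and without WT replicate 1, 2 or 3 or KO replicate 2 or 3 (0.34 to 0.50, adjusted p = 0.095 to 0.22). Its exons overlap those of Card14 on the other strand.

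Of the other enzymes of sugar chains, Manba, a beta-mannosidase, rose 1.53-fold in KO against WT (adjusted p = 1.4e-06, edgeR) and fell 1.80-fold with LPS in WT cells and 2.52-fold in KO cells (adjusted p = 3.5e-08 and 1.8e-10). Gusb and Fuca1, the beta-glucuronidase and the alpha-fucosidase, rose by 0.52 and 0.53 in KO against WT (adjusted p = 0.00016 and 0.0002, edgeR), and by 0.30 and 0.64 in KOL against WTL (adjusted p = 0.011 and 4.2e-05). Fuca1 did not pass in KO against WT on TPM (0.34, adjusted p = 0.17, limma). Hexa, a subunit of beta-hexosaminidase, and Man2b1, an alpha-mannosidase, rose by 0.39 and 0.34 in KO against WT (adjusted p = 0.0084 and 0.00067, edgeR), of which Hexa was lost on TPM (0.30, adjusted p = 0.082, limma) and without WT replicate 3 (0.32, adjusted p = 0.063). Gla and Neu1 were called in neither comparison of genotypes.

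In lipid handling, Npc2 and Npc1 went apart with LPS, although both products export cholesterol from the lysosome. Npc2 (chr12:84754562-84773152, minus strand) had 9520, 9674 and 9767 normalized counts in WT, 17559, 17942 and 18739 in WTL, 17305, 17202 and 17208 in KO, and 27052, 25657 and 27277 in KOL. WT was lowest and KOL highest, and KO lay just below WTL. Npc2 rose 1.79-fold in KO against WT (adjusted p = 4.4e-08, edgeR), 1.47-fold in KOL against WTL (adjusted p = 2.9e-06), and 1.87-fold and 1.55-fold with LPS in WT and KO cells (adjusted p = 7.8e-09 and 3.3e-07). Npc1 fell 1.87-fold and 2.12-fold with LPS (adjusted p = 9.9e-07 and 1.3e-07, edgeR) and was not called between the genotypes, with 2148 ± 61.7 normalized counts in WT and 2179 ± 67.5 in KO (SD, n = 3).

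Galc (chr12:98202294-98259459, minus strand), the galactosylceramidase, had 546, 491 and 468 normalized counts in WT, 179, 183 and 171 in WTL, 786, 783 and 789 in KO, and 262, 289 and 271 in KOL. No 2 groups overlapped. Galc rose 1.57-fold in KO against WT and 1.54-fold in KOL against WTL (adjusted p = 3.3e-06 and 2.9e-05, edgeR), and fell 2.82-fold and 2.87-fold with LPS in WT and KO cells (adjusted p = 7.3e-10 and 2.7e-10).

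Psap (chr10:60277627-60302597, plus strand) had 101350, 109550 and 105380 normalized counts in WT, 84814, 91956 and 95223 in WTL, 166770, 166960 and 172840 in KO, and 106370, 94694 and 103660 in KOL. KO stood above the 3 other groups, and KOL overlapped both WT and WTL. Psap rose 1.60-fold in KO against WT (adjusted p = 2e-06, edgeR) and was not called in KOL against WTL (0.16 ± 0.07 SE, adjusted p = 0.069).

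Lipa (chr19:34492318-34527474, minus strand), the acid lipase for cholesteryl esters and triglycerides, had 10680, 10810 and 11322 normalized counts in WT, 5353, 4304 and 4054 in WTL, 11091, 10858 and 11667 in KO, and 6320, 10094 and 7120 in KOL. WT and KO overlapped, and all WTL libraries were below all KOL libraries, among which replicate 2 stood high. Lipa fell 2.39-fold with LPS in WT cells and 1.43-fold in KO cells (adjusted p = 3.1e-06 and 0.0051, edgeR), and was 1.72-fold higher in KOL than in WTL (adjusted p = 0.00046). Of the others, Grn, the progranulin gene, rose by 0.40 in KO against WT (adjusted p = 0.0049, edgeR) but did not pass on TPM (0.27, adjusted p = 0.086, limma). Asah1, the acid ceramidase, fell by 0.74 with LPS in KO cells (adjusted p = 1e-04, edgeR). Neither Asah1 nor Ppt1 was called between the genotypes. Ppt1 overlaps exons of Cap1 on the other strand, which reached 257.21 TPM.

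**Figure D4:**
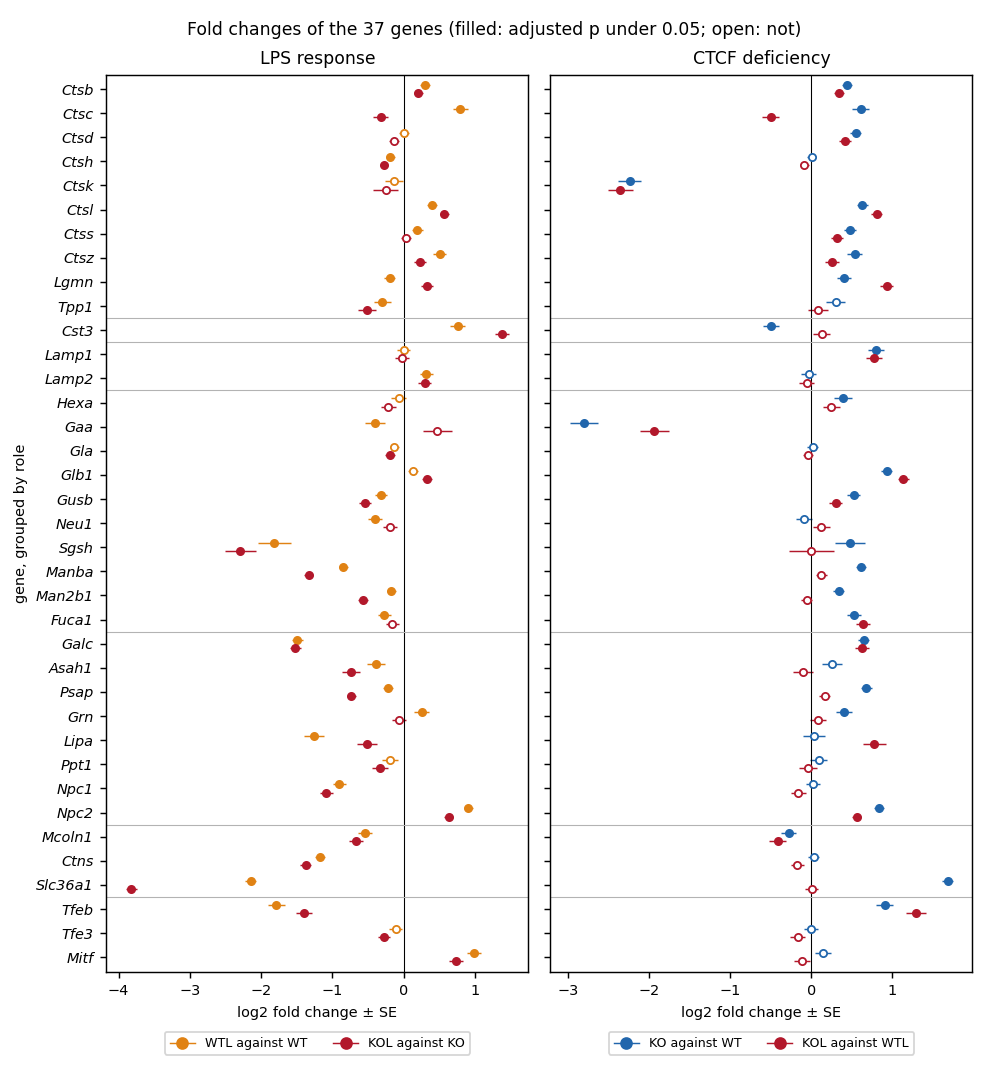
Log2 fold changes with SE of the 37 genes (rows, grouped by role) for the LPS response (left: WT and KO cells) and for CTCF deficiency (right: unstimulated and stimulated cells). Filled points passed an adjusted p under 0.05 and open points did not. The leftmost points are Slc36a1 in KOL against KO (-3.82) and Gaa in KO against WT (-2.81).

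The largest rise in KO and the largest fall with LPS were those of Slc36a1 (chr11:55204350-55236330, plus strand), which encodes PAT1, a lysosomal exporter of amino acids that takes part in mTORC1 activation. It had 866, 871 and 849 normalized counts in WT, 210, 198 and 178 in WTL, 2765, 2693 and 2850 in KO, and 199, 201 and 187 in KOL. KO stood above WT, and both above WTL and KOL, which overlapped. Slc36a1 rose 3.21-fold in KO against WT (log2 fold change 1.68 ± 0.07 SE, adjusted p = 1.6e-10, edgeR) and was not called in KOL against WTL (0.0052 ± 0.0834 SE, adjusted p = 0.97). It fell 4.42-fold with LPS in WT cells (adjusted p = 1.1e-11, edgeR) and 14.20-fold in KO cells (adjusted p = 3.7e-14).

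Mcoln1, the gene of the lysosomal calcium channel TRPML1 and a known TFEB target, had 649, 618 and 566 normalized counts in WT, 365, 433 and 458 in WTL, 503, 485 and 521 in KO, and 341, 274 and 329 in KOL. Each LPS group lay below its unstimulated group. It fell by 0.54 with LPS in WT cells and by 0.68 in KO cells (adjusted p = 0.00024 and 3.3e-05, edgeR). It also fell in KO against WT (-0.28, adjusted p = 0.026, edgeR), which was lost on rescaled TPM (-0.32, adjusted p = 0.14, limma) and without WT replicate 1 or KO replicate 1 or 2 (-0.25 to -0.28, adjusted p = 0.061 to 0.094). In KOL against WTL it fell by 0.42 (adjusted p = 0.0042, edgeR), which was lost on rescaled TPM (-0.29, adjusted p = 0.16, limma). The cystine exporter gene Ctns fell 2.25-fold and 2.59-fold with LPS in WT and KO cells (adjusted p = 4.9e-09 and 8.2e-10, edgeR) and was not called between the genotypes.

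Whether the LPS response itself differed between the genotypes was tested by the interaction, the response in KO minus that in WT on the log2 scale. It was higher in 4 and lower in 6 of the 37 genes, against 8.7% and 8.75% of all genes, and 27 were not called (10 of 37 called, against 17.4%), with medians of -0.137 and -0.016 over the 37 and over all genes. It was lower for Slc36a1 (-1.68 ± 0.11 SE, adjusted p = 4.2e-07, edgeR), Ctsc (-1.12 ± 0.15, adjusted p = 0.00015) and Psap (-0.52 ± 0.10, adjusted p = 0.0025). It was higher for Gaa (0.88 ± 0.25, adjusted p = 0.028, edgeR), Lipa (0.74 ± 0.20, adjusted p = 0.02) and Cst3 (0.62 ± 0.14, adjusted p = 0.0087). For Slc36a1, WT and KO differed before LPS and WTL and KOL did not, whereas for Lipa the genotypes overlapped before LPS and were apart after it. The call of Gaa was lost without KO replicate 1 (0.87, adjusted p = 0.068), KO replicate 2 (0.77, adjusted p = 0.084) or KOL replicate 1 (0.58, adjusted p = 0.091), and that of Lipa without WTL replicate 2 (0.70, adjusted p = 0.052) or KO replicate 2 (0.72, adjusted p = 0.052).

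**Figure D5:**
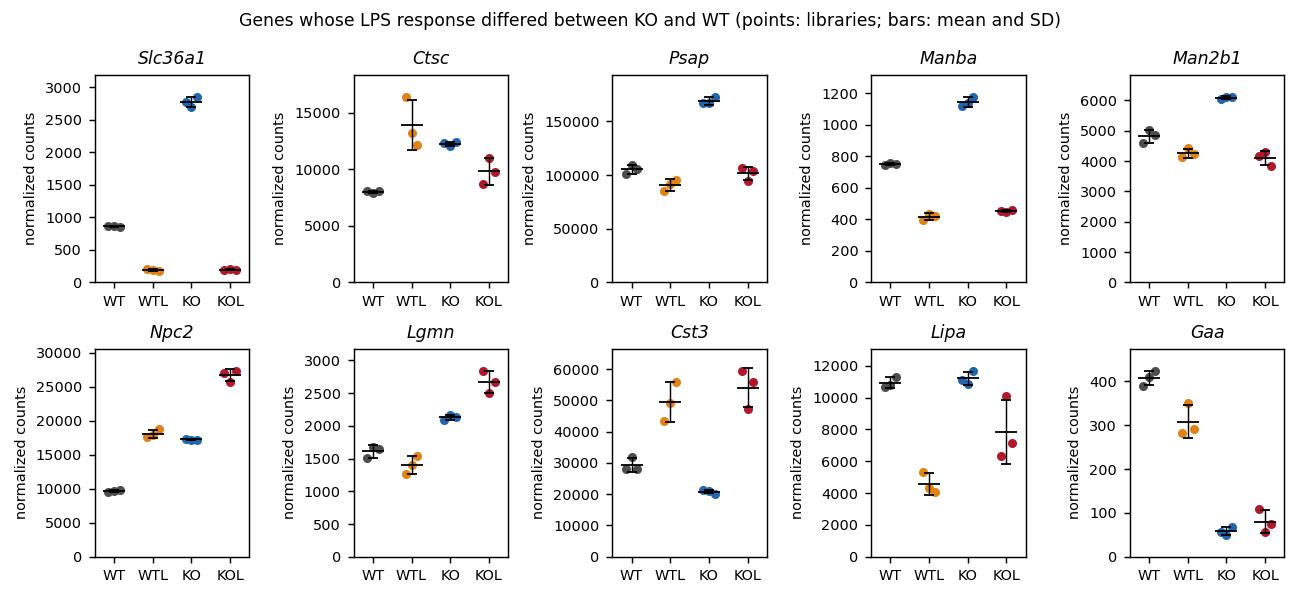
Normalized counts (y axes, from 0) of the 10 genes whose LPS response differed between KO and WT cells, with 1 point per library and the mean and SD of 3 libraries in black. In KO, Slc36a1 (2693 to 2850), Psap and Manba stand above all other groups, while the genotypes of Lipa overlap without LPS and separate with it.

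Genes around these 37 were counted in lists made by function. Beside these counts, the shares of all genes that rose and fell were 22.2% and 22.4% in KO against WT, 21.4% and 23.3% in KOL against WTL, 30.0% and 30.2% with LPS in WT cells, and 33.6% and 33.9% with LPS in KO cells. Of 29 other lysosomal hydrolases tested (of 30), 16 rose and 6 fell in KO against WT, 14 and 5 in KOL against WTL, 5 and 12 with LPS in WT cells, and 5 and 15 in KO cells. Gm2a, the activator of ganglioside breakdown, had 7058 ± 166 normalized counts in WT and 15300 ± 254 in KO (SD, n = 3), a rise of 2.17-fold (adjusted p = 7.1e-08, edgeR). Lyz2, the lysozyme of myeloid cells, rose 1.94-fold (adjusted p = 3.4e-05, edgeR), and Galns fell 1.77-fold (adjusted p = 0.00012). With LPS in WT cells, Cln3 and Acp5 rose 2.5-fold and 2.33-fold and Smpd1, the acid sphingomyelinase, fell 2.13-fold (adjusted p = 1.7e-09, 1.9e-09 and 1.6e-05, edgeR).

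Of 22 other membrane proteins and transporters tested (of 23), 10 rose and 2 fell in KO against WT (22.2% and 22.4% of all genes), and 6 rose and 11 fell with LPS in WT cells (30.0% and 30.2%). Slc11a1, the metal transporter of phagosomes, rose 1.87-fold in KO (adjusted p = 1.8e-06, edgeR), and the channel gene Tpcn1 fell 4.06-fold with LPS in WT cells and 4.21-fold in KO cells (adjusted p = 2.4e-10 and 1.1e-10). Of 18 subunits of the V-ATPase, the proton pump that acidifies lysosomes, 5 rose and 3 fell in KO against WT, near the share of all genes, and 11 rose and 4 fell with LPS in WT cells. Their summed TPM went the other way with LPS, being 4643 to 4842 in WT and 3880 to 4258 in WTL, on the unscaled TPM whose median moved. Atp6v1b2 rose 2.88-fold and Atp6v0a1 fell 2.35-fold in KO against WT (adjusted p = 1.1e-08 and 6.4e-08, edgeR). Of 9 genes that sort enzymes to lysosomes, 2 rose and 2 fell in KO against WT, again near the share of all genes, and the receptor genes Igf2r and Sort1 moved apart (2.59-fold up, adjusted p = 4.4e-08, and 2.48-fold down, adjusted p = 9.3e-08, edgeR).

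Of 8 further cystatins and stefins in the files 3 could be tested. The cytosolic stefin gene Cstb rose 1.33-fold in KO against WT (adjusted p = 0.00028, edgeR), and Cst7 rose 10.1-fold with LPS in WT cells (adjusted p = 3.6e-10). Of 16 regulators and relatives of the MiT factors, 5 rose and 2 fell in KO against WT (22.2% and 22.4% of all genes), and 0 rose and 6 fell with LPS in WT cells (30.0% and 30.2%). Tfec, the fourth MiT gene, had 1023, 1017 and 1060 normalized counts in WT, 1095, 887 and 966 in WTL, 1681, 1624 and 1719 in KO, and 798, 1065 and 905 in KOL. It was above all other libraries in KO, where it rose 1.62-fold against WT (adjusted p = 4.7e-05, edgeR), and it fell 1.82-fold with LPS in KO cells (adjusted p = 2.9e-06). Of 17 autophagy genes, 5 rose and 2 fell in KO against WT (22.2% and 22.4% of all genes), and 6 rose and 10 fell with LPS in WT cells (30.0% and 30.2%). The receptor gene Sqstm1 rose 2.13-fold with LPS in WT cells (adjusted p = 8.9e-09, edgeR), and Gabarapl1 rose 2.47-fold in KO against WT (adjusted p = 1.3e-09).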

How the data were processed

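After trimming with Trim Galore, the authors used STAR (version 2.5.1 in the submitters' processing notes) for alignment to mm10 and RSEM for quantification. They deposited expected counts, which are estimated counts that need not be whole, together with TPM and the effective length, for each library and without pooling. TPM keep no depth. The methods name a kit with poly(A) selection and the labels depletion of ribosomal RNA, and the strand setting of RSEM is not given in the sources used here.

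Groups and replicate numbers came from the sample titles. Expected counts were rounded, normalized by TMM and tested with the quasi-likelihood test of edgeR 4.0.16 in R 4.3.3 in one fit of 12 libraries, after filterByExpr (14008 genes), with Benjamini-Hochberg adjustment over all of them and a threshold of 0.05. Normalized counts are scaled to the mean effective library size, and errors are SDs (n = 3) or SEs of the fit. P-values of single genes are two-sided. Values of TPM were tested as log2(TPM + 1) with limma 3.58.1, for genes with at least 1 TPM in 3 libraries, which understates changes of low genes. Alternatives were DESeq2 1.42.0, its size factors in edgeR, the 6 libraries of each comparison alone, the absence of a filter, a minimum of 10 counts per library, a replicate block, a pseudocount of 0.1, the study's fold cutoffs (2 for LPS in WT cells, 1.3 between unstimulated and 1.5 between stimulated genotypes), leaving out each library and, added after seeing the data, TPM divided by size factors. The cutoff of 2 was also used for LPS in KO cells, for which the study states none.

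On simulated counts over the 14008 genes for KO against WT, edgeR recovered 58 of 100 genes changed by 0.58 on the log2 scale, 33 of 50 changed by 1 and 49 of 50 changed by 2, with 10 false calls. For the interaction it recovered 22 of 100, 29 of 50 and 44 of 50, with 3 false calls. In the data 44.6% of genes were called in KO against WT and 17.4% in the interaction, far more than were changed here. The adjustment is stricter where fewer genes change, so these rates do not give the power of the tests reported above.

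The 37 genes and the lists were chosen with earlier results of these data known. Values per library are given for the MiT factors, for the genes with the 3 largest rises and falls that passed in each comparison and for Ctcf and Tfec. From the lists up to 2 genes in each direction with at least 100 normalized counts on average were named. Lamp1 and Mcoln1 were given per library after their values had been seen, because their promoters are shown. Positions of genes were taken from GENCODE M21 (mm10) and promoters from RefSeq (GRCm38.p6). Tables were handled with pandas 2.3.3 in Python 3.11.15 and plots with matplotlib 3.10.9.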

Additional observations from a re-analysis of the deposited data

Results flagged for a closer look

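In 10 genes the response to LPS differed between KO and WT cells by the interaction test of edgeR with Benjamini-Hochberg adjustment over all genes. The response was lower in KO cells for Slc36a1 (-1.68, adjusted p = 4.2e-07), Ctsc (-1.12, adjusted p = 0.00015), Psap (-0.52, adjusted p = 0.0025), Manba (-0.49, adjusted p = 0.0019), Man2b1 (-0.40, adjusted p = 0.009) and Npc2 (-0.28, adjusted p = 0.035). It was higher for Lgmn (0.52, adjusted p = 0.0062), Cst3 (0.62, adjusted p = 0.0087), Lipa (0.74, adjusted p = 0.02) and Gaa (0.88, adjusted p = 0.028). Ctsc rose with LPS in WT cells and fell in KO cells, and Lgmn fell in WT cells and rose in KO cells, where the fall of Lgmn in WT cells was lost without WTL replicate 1 (-0.13, adjusted p = 0.16) or WTL replicate 2 (-0.20, adjusted p = 0.097), and its rise in KO cells and the rise of Ctsc in WT cells depended on the scale as described above. Without 1 library the calls of Gaa, Man2b1, Lipa and Npc2 were lost, the call of Man2b1 without WT replicate 1 (-0.29, adjusted p = 0.068) or WT replicate 3 (-0.34, adjusted p = 0.054), and that of Npc2 without any of WT replicates 1 to 3, WTL replicates 2 and 3, KO replicates 1 to 3 and KOL replicate 1 (adjusted p = 0.055 to 0.18). The calls of Slc36a1, Ctsc, Psap, Manba, Lgmn and Cst3 passed without any 1 of the 12 libraries. On unscaled TPM the calls of Gaa (0.64, adjusted p = 0.057, limma), Manba (-0.42, adjusted p = 0.074) and Npc2 (-0.22, adjusted p = 0.13) did not pass. The neutrophil marker sum on unscaled TPM was 451.9 to 481.8 TPM in WT, 398.0 to 508.0 in WTL, 241.5 to 273.3 in KO and 334.1 to 390.1 in KOL, and its part in these differences was not tested.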

How the results depend on the processing

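Counts of members that rose or fell stayed within 1.5 times those reported under DESeq2, its size factors, the 6 libraries alone, the absence of a filter, a minimum of 10 counts per library and TPM divided by size factors. The study's fold cutoff left 0 risen and 6 fallen in WTL against WT and 8 and 2 in KOL against WTL. In KOL against KO, where the cutoff of WTL against WT was used, it left 1 and 7. Without TMM scaling, limma on log2(TPM + 1) or log2(TPM + 0.1) gave 2 risen and 30 fallen in WTL against WT and 2 risen in KOL against KO. There, log2 fold changes moved from those on counts by a median over genes of -0.49 to -0.525 and of -0.427 to -0.458. Leaving out 1 library gave 7 to 9 risen and 15 to 20 fallen in WTL against WT, 19 to 21 and 3 to 4 in KO against WT, 13 to 17 and 4 to 6 in KOL against WTL, 7 to 10 and 17 to 20 in KOL against KO, and 2 to 6 higher and 4 to 9 lower in the interaction, which had 2 higher without KO replicate 2. The upper ends in KOL against WTL (17 and 6) and in the interaction (6 and 9) came without KOL replicate 2. Its chi-square per degree of freedom was 27.157 against KOL replicate 1 and 28.514 against replicate 3, which differed from each other by 8.07.

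On TPM with pseudocounts of 1 and 0.1 these genes had the opposite sign. In WTL against WT they were Ctsb (-0.115 and -0.116), Ctsl (-0.202 and -0.203), Ctss (-0.341 in both), Ctsz (-0.026 in both), Lamp2 (-0.242 and -0.243), Glb1 (-0.384 and -0.405) and Grn (-0.278 in both). In KOL against KO they were Ctsb (-0.058 in both), Ctsl (-0.114 in both), Ctss (-0.427 in both), Ctsz (-0.231 in both), Lgmn (-0.123 and -0.124), Lamp2 (-0.150 in both) and Glb1 (-0.126 and -0.129). With a pseudocount of 1, Ctss (adjusted p = 0.0043, limma), Lamp2 (0.042) and Grn (0.047), which rose on counts in WTL against WT, passed as fallen. So did Glb1 (adjusted p = 0.0013, limma), which was not called there on counts. In KOL against KO, Ctsz (adjusted p = 0.042, limma), which rose on counts, and Ctss (0.001), not called on counts, passed as fallen. The other opposite signs with LPS did not pass. In KO against WT, Ctsh had -0.341 and -0.342, and -0.249 on rescaled TPM. Apart from Ctsh these changed sign where the median of all genes moved with the scale, and the cause for Ctsh was not tested.

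Among calls of single members, 9 of 29 in WTL against WT, 3 of 25 in KO against WT, 1 of 18 in KOL against WTL, 6 of 28 in KOL against KO and 4 of 10 in the interaction were lost without some 1 library. The titles do not say whether equal replicate numbers are paired. Deviations of libraries with the same number correlated by -0.286 to 0.112 over pairs of groups, and those of WTL replicate 1 and KOL replicate 2 by 0.326. With 3 libraries per group these values cannot decide whether samples were paired. With the replicate number as a block 8 rose and 17 fell in WTL against WT, 21 and 4 in KO against WT, 14 and 4 in KOL against WTL, 8 and 19 in KOL against KO, and 3 and 5 in the interaction, in which Gaa (0.87, adjusted p = 0.053, edgeR) and Npc2 (-0.28, adjusted p = 0.055) no longer passed. Depth limits Sgsh most, with fewer than 100 normalized counts in every library.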
